A study of Sus scrofa with 61 samples.

Results

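Thyroid hormone reaches a muscle fibre through a chain of proteins, and 7 genes of that chain were followed here in longissimus muscle of pig fetuses late in gestation. They were the plasma carriers SERPINA7 and TTR, the deiodinases DIO1, DIO2 and DIO3, and the nuclear receptors THRA and THRB. The probes taken were those whose gene name in the scanner files, or whose symbol in the gene lists of the study, was one of these 7 symbols. This gave 19 of the 60305 probes on the array, all 60 bases long, and 7 of its 12361 gene symbols.

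The study compared fetuses of Large White (LW) and Meishan (MS) pigs and of both reciprocal crosses at day 90 and day 110 of gestation, to describe how muscle matures before birth in breeds that differ in mortality at birth. RNA of 1 fetus was hybridised to each of 61 single-colour Agilent arrays. All fetuses were male, and LW and MS sows received mixed semen of both breeds, so that 1 litter could hold purebred and crossbred fetuses. LWMS fetuses had an MS sow and an LW boar, and MSLW fetuses had an LW sow and an MS boar.

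Each genotype had 8 fetuses at day 90. At day 110 the LW fetuses numbered 9, the MS fetuses 7, the LWMS fetuses 8 and the MSLW fetuses 5. The tissue was whole muscle, in which fewer cells of a type and less RNA per cell cannot be told apart. All 8 skeletal muscle markers (ACTA1, CKM, DES, MYLPF, TNNT3, TNNC2, ACTN2 and MYOZ1) were well above background on every array, by the mark of the scanner software, and the log2 of their summed intensity lay between 20.63 and 21.39. Between 34346 and 45683 probes per array were well above background. The highest correlation between 2 arrays was 0.992, and the 8 slides held 6 to 8 groups each.

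The thyroid gland releases mostly thyroxine, a prohormone that circulates bound to thyroxine-binding globulin (SERPINA7), transthyretin (TTR) and albumin. Inside cells, deiodinases of type 1 and type 2 convert it to the active hormone triiodothyronine, and type 3 inactivates both. Triiodothyronine binds the receptors THRA and THRB, which sit on DNA and switch target genes on or off. In fetal skeletal muscle the hormone is known for driving the change of myosin isoforms, calcium handling and oxidative metabolism towards the adult pattern around birth.

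Whether a probe measured anything in muscle differed strongly between the genes. The 3 THRA probes were well above background on all 61 arrays and both DIO2 probes on 60. The THRB probes A_72_P141001 and O10872 were so on 60 and 53 arrays. The SERPINA7 probes were measured on 28 and 33 arrays and the DIO3 probes on 33, 32, 24 and 2. The DIO1 probes reached 15 and 6 arrays, and the 3 TTR probes only 3, 2 and 1. Tests were run on probes that rose well above background in 80% or more of the fetuses of some group, which kept 12 of the 19 probes, of 6 genes, and 42436 probes in all. A probe kept only for the group in which it was bright had to differ between groups, so the number kept says nothing about the genes.

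**Figure D1:**
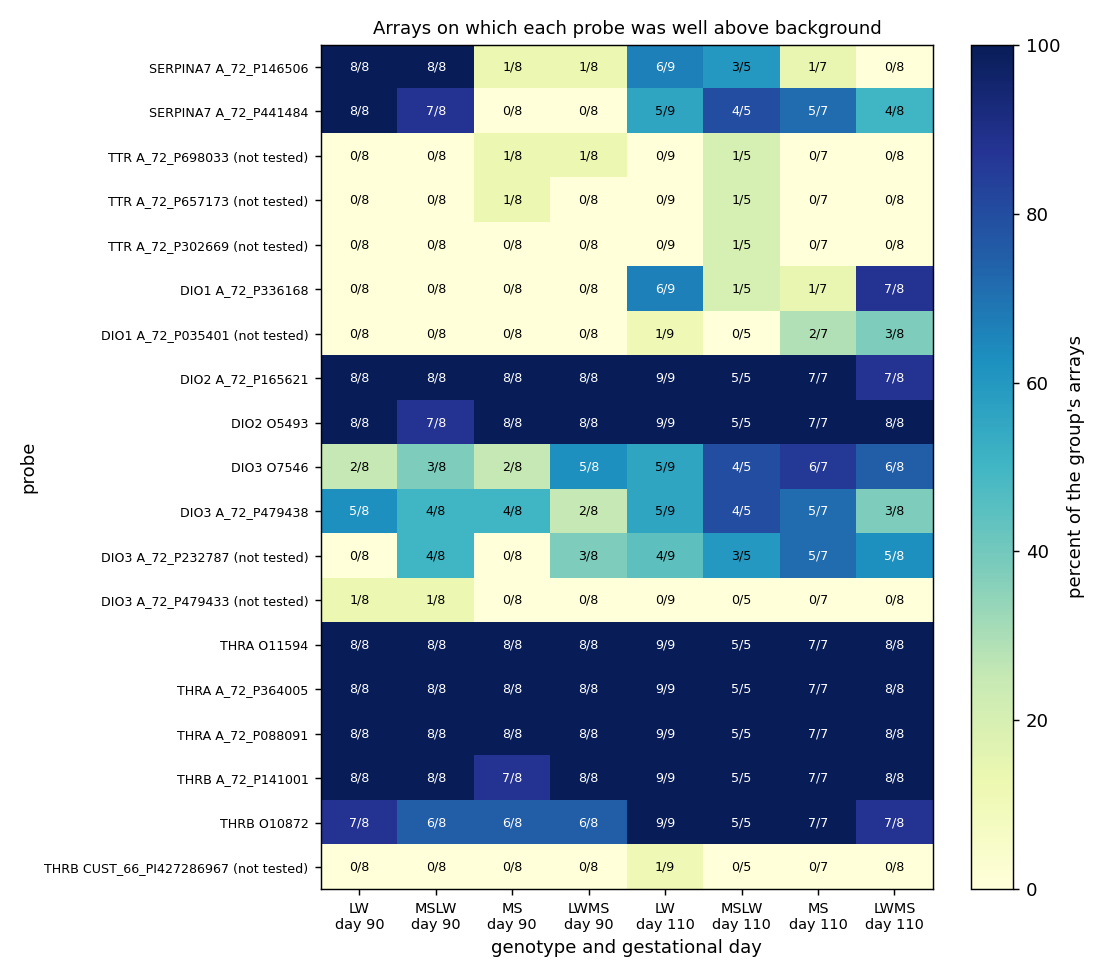
Number of arrays of each group (columns, genotype and gestational day) on which each of the 19 probes (rows) was well above background; the colour gives the percent of the group's arrays. SERPINA7 A_72_P146506 was measured in 8 of 8 LW and 8 of 8 MSLW fetuses at day 90 but in 1 of 8 MS and 1 of 8 LWMS fetuses, and DIO1 A_72_P336168 was measured in no group at day 90.

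The probes that carry the results below are shown as 60-base oligonucleotides, 5′ to 3′, because the probes of 1 gene did not always behave alike. The array files place A_72_P146506 at base 1219 and A_72_P441484 at base 604 of the same SERPINA7 transcript, and they are called the downstream and the upstream probe here:
SERPINA7 downstream: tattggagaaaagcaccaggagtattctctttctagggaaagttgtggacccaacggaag
SERPINA7 upstream: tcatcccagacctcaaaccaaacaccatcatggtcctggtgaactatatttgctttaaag
The DIO2 probes A_72_P165621 and O5493 have the same 60 bases, and so give a technical repeat within each array:
DIO2: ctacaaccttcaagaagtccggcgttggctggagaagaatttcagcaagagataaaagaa
One DIO3 probe, A_72_P479438, and the THRA probe A_72_P088091 are shown because they could be set beside the other probes of their genes:
DIO3: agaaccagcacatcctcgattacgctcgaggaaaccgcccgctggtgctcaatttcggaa
THRA: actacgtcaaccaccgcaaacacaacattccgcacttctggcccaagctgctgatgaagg
A THRB probe, O10872, and the THRB-named probe CUST_66_PI427286967 are on opposite strands, and the capitals mark the 26 bases at which they are reverse complements:
THRB O10872: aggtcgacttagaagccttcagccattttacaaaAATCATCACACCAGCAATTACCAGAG
THRB opposite strand: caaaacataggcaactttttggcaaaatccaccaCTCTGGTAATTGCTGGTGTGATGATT
The opposite-strand probe was well above background on 1 of 61 arrays. The DIO3 probes O7546 and A_72_P232787 share 59 bases, and the TTR probes A_72_P698033 and A_72_P302669 share 52, so these are not independent measurements.

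Differences were tested with limma on normalized log2 intensities over all 42436 kept probes, at a threshold of 1% on the Benjamini-Hochberg adjusted p within each comparison. All 12 member probes passed the F test across the 8 groups, as did 72.2% of all probes, and nothing is read from this, since probes kept for 1 bright group had to differ. Between day 90 and day 110, averaged over the 4 genotypes, 7 of the 12 rose and 3 fell, against 72.3% of all probes changed. Within LW fetuses 6 of the 12 changed (all probes, 45.3%) and within MS fetuses 6 (56.7%). Among the crosses 7 changed in LWMS (50.9%) and 6 in MSLW (44.6%). These shares lie near those of all probes, and a change with age was therefore the usual state of a probe and not a property of the pathway.

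Genotype contrasts called fewer probes. Between MS and LW, 3 of 12 member probes differed at day 90 (all probes, 12.8%) and 5 at day 110 (29%). Between fetuses of MS and of LW sows, 2 differed at day 90 (6.48%) and 2 at day 110 (15.1%). Between fetuses of MS and of LW boars, none differed at day 90 by this test (5.14%, with 2 at an unadjusted p under 0.05) and 1 at day 110 (13.3%).

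Between the reciprocal crosses 2 of 12 probes differed at day 90, where 0.5% of all probes did. None passed at day 110 (0.912%, with 2 at an unadjusted p under 0.05). A change with age that was unequal in MS and LW was called for 3 probes (5.95%), by sow genotype for 2 (2.91%), by boar genotype for none (0.497%, with 3 at an unadjusted p under 0.05) and between the crosses for none (0.033%, also with 3). SERPINA7 supplied both calls in the crosses and both by sow genotype in the age change.

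SERPINA7, the gene of thyroxine-binding globulin, was split by the genotype of the sow at day 90. The downstream probe ran from 6.73 over a median of 7.36 to 7.72 in LW fetuses, on the normalized log2 scale. In MSLW fetuses, which also had LW sows, it ran from 6.67 over 7.34 to 8.36. These groups of LW sows overlapped almost wholly.

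In MS fetuses the lowest, median and highest values were 1.75, 2.09 and 4.22, and in LWMS fetuses, which also had MS sows, they were 1.75, 2.81 and 3.69. The highest of the 16 fetuses of MS sows (4.22) lay below the lowest of the 16 fetuses of LW sows (6.67). The difference by sow genotype, MS minus LW, was -4.78 (SE 0.32, adjusted p 4.85e-18). It was negative within each of the 8 slides, from -5.84 to -3.78. The downstream probe entered the tests only through LW and MSLW fetuses at day 90, the high side of this contrast. The call is therefore not independent of the filter. Litter-mates share a sow and were counted as independent, so the p-value may be too small.

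Only 2 of 16 fetuses of MS sows had a signal well above background, so the fitted difference is set in part by values at background and is no measure of the size of the gap. A lower bound was computed from mean log2 values, each dim array counted at the higher of its own value and its lowest signal well above background. On this scale fetuses of LW sows were at least 12.3-fold higher. The fitted difference by genotype of the boar was 0.00 (SE 0.32, 95% confidence interval -0.64 to 0.64). It averages the groups of LW sows with those of MS sows, mostly at background, so the interval does not bound a difference by boar. Among LW sows the means were 7.29 in LW and 7.43 in MSLW fetuses.

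The crosses alone gave the same picture at day 90. LWMS fetuses were lower than MSLW fetuses by a difference of -4.78 (SE 0.45, adjusted p 8.43e-12), with 1 of 8 LWMS arrays well above background. MS were lower than LW fetuses, with a difference of -4.77 (SE 0.45, adjusted p 1.57e-12). These contrasts share fetuses with the contrast of sows and are not independent of it. They also hold the groups that admitted the probe, and with no filter on dim probes their adjusted p were 1.63e-11 and 3.02e-12.

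At day 110 the groups of LW sows had come down and spread out on the downstream probe. In LW fetuses the values ran from 2.85 over 4.90 to 6.37, with 6 of 9 well above background. The 5 MSLW fetuses were at 4.09, 4.80, 5.42, 4.37 and 3.34, with 3 above background. MS fetuses ran from 1.67 over 1.79 to 6.12 and LWMS fetuses from 1.75 over 1.80 to 4.06, so the groups now overlapped.

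The difference by sow genotype at day 110 was -2.25 (SE 0.34, adjusted p 1.11e-06), negative in each of the 7 slides that held both, and as a bound at least 1.32-fold. LWMS minus MSLW was -2.14, which missed the threshold (SE 0.51, adjusted p 0.0114). It passed when LWMS and MSLW were fitted alone (adjusted p 0.00287), and without MS replicate 4 or MSLW replicate 5 at day 110. LW fetuses changed with age by -2.53 (SE 0.44, adjusted p 1.75e-06) and MSLW fetuses by -3.03 (SE 0.51, adjusted p 1.22e-06). It was -0.11 in MS (adjusted p 0.851) and -0.38 in LWMS (adjusted p 0.476), groups in which the probe was near background at both ages.

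The fitted change with age differed by sow genotype by 2.53 (SE 0.47, adjusted p 0.000303). Fetuses of MS sows were at background at both ages, with 2 of 16 and 1 of 15 arrays measured, and could not fall, so this value is set by the background and does not measure unequal changes. The same holds between MS and LW alone, where it was 2.42 (SE 0.64, adjusted p 0.00759). Without MS replicate 4 at day 110 the latter was 1.80 and missed the threshold (adjusted p 0.0178), and it also missed without MS replicate 3 at day 90 (adjusted p 0.0124).

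The upstream SERPINA7 probe showed the same split at day 90, and at day 110, when it lay near background, no split was seen. At day 90 LW fetuses ran from 3.60 over 4.87 to 5.27 and MSLW fetuses from 4.45 over 4.82 to 5.98. MS fetuses ran from 1.72 over 2.31 to 3.19 and LWMS fetuses from 1.70 over 2.59 to 3.45, with no array well above background. The difference by sow was -2.33 (SE 0.20, adjusted p 2.11e-13), or at least 2.35-fold as a bound, and the ranges did not overlap. The upstream probe too entered the tests only through groups of LW sows, LW and MSLW at day 90 and MSLW at day 110.

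At day 110 the medians of the upstream probe were 4.27 in LW, 4.29 in MS and 4.07 in LWMS fetuses, and the MSLW fetuses were at 4.26, 4.50, 4.14, 4.47 and 3.88. The difference by sow was 0.00 (SE 0.22, 95% confidence interval -0.44 to 0.44). Only 9 of 14 fetuses of LW sows and 9 of 15 of MS sows were well above background. The difference and its interval thus rest in part on values near background and do not measure an absence of difference. With age the upstream probe changed by -0.45 in LW (adjusted p 0.175) and by -0.74 in MSLW (adjusted p 0.0508), of the same sign as the falls of the downstream probe. The upstream probe rose in MS fetuses (difference 2.06, adjusted p 2.32e-08, at least 1.63-fold) and in LWMS fetuses (1.40, adjusted p 3.09e-05). In both genotypes the downstream probe was near background at both ages. No bound is given for LWMS, in which 4 of 8 arrays were measured at day 110, with a mean of 4.03. Counted at their lowest signal well above background, as on the TTR probes, these 8 arrays had a mean of 4.12, above 4.03. Averaged over genotypes the upstream probe rose by 0.57 (SE 0.15, adjusted p 0.000587) and the downstream probe fell by 1.51 (SE 0.23, adjusted p 6.39e-08). The rise of the upstream probe was smaller and missed the threshold with the deposited values, the scanner's median signal or normexp background correction.

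Within the groups the 2 SERPINA7 probes varied almost independently, with a correlation of 0.20 over the 61 arrays after group means were removed. The age change of the upstream probe differed by sow genotype by 2.33 (SE 0.30, adjusted p 1.40e-06) and between MS and LW by 2.51 (SE 0.41, adjusted p 2.62e-05). No fetus of an MS sow was well above background on it at day 90, so these sizes are set in part by the background. An MS fetus at day 110, replicate 4, stood alone on the downstream probe at 6.12 against a group median of 1.79. Its upstream probe was at 4.24, near the median of 4.29, and among liver markers its ALB value was 6.24 (group median 6.36), its FGB value 5.08 (5.08) and its TF value 8.14 (7.32).

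**Figure D2:**
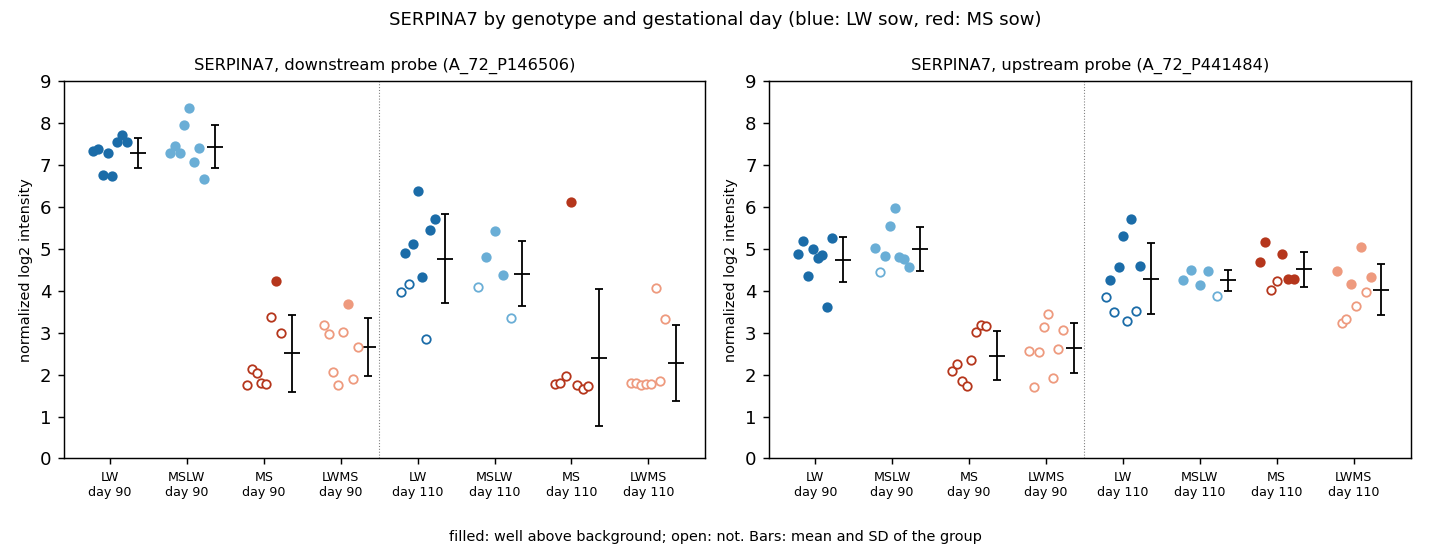
Normalized log2 intensity of the downstream (left) and upstream (right) SERPINA7 probe in each fetus by genotype and gestational day; blue marks fetuses of LW sows, red those of MS sows, filled points are well above background and bars give the group mean and SD. At day 90 all 16 fetuses of LW sows lie above all 16 of MS sows on both probes, and at day 110 the upstream probe, with values near background, shows no such split.

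SERPINA7 lies on the X chromosome in the RefSeq annotation of the pig (Sscrofa11.1), and a male fetus has its X from the sow. The genotype of the sow and the origin of the X therefore cannot be told apart for this gene. Its calls can be set beside those of all probes that the annotation places on the X or on an autosome. Between the crosses at day 90, 6.23% of 690 X probes passed the threshold and 0.176% of 18170 autosomal probes. At day 110 the shares were 7.68% and 0.754%. By sow genotype they were 17.2% and 6% at day 90, and 27.8% and 17.2% at day 110.

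Of the 10 nearest measured genes, 5 on each side of SERPINA7 in the annotated order, 5 differed by sow genotype at day 90. RAB9B (-1.28), FAM199X (-0.50), IL1RAPL2 (-1.25) and MUM1L1 (-0.59) were lower in fetuses of MS sows, and MORF4L2 was higher (0.18). The other 5 did not pass on their main probe. Over the 61 arrays, the annotated genes most like SERPINA7 in pattern were RPS4 (r 0.87), IQSEC2 (0.86) and IL1RAPL2 (0.84), and PHKA1 (-0.79) was the most opposite. All 4 are on the X in that annotation. These correlations describe 61 arrays that share the same 8 groups.

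TTR, the gene of transthyretin, was not tested because no group had enough arrays above background. By day its 3 probes had medians of 1.57 to 1.90, with no array well above background in LW fetuses at either age. A single fetus, MSLW replicate 4 at day 110, had all 3 probes above background, at 6.76, 6.59 and 6.62. In the same fetus ALB was at 9.69 (group median 6.46), FGB at 5.95 (3.72) and FGA at 4.09 (3.52), while AFP stayed at 1.82 (1.79). TF (8.78, median 8.09), SERPINA1 (8.93, median 8.44) and the thyroid marker DUOX2 (6.39, median 4.66) were also above their medians. The part of other tissue in this fetus was not tested. Its SERPINA7 value of 4.37 was the median of its group. In MS replicate 6 at day 90 TTR reached 7.37 on 1 probe and 1.74 and 1.59 on the others, although 2 of the 3 probes share 52 bases.

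Albumin (ALB), the carrier of low affinity and high capacity, was well above background on all 61 arrays. It rose with age by 0.52 averaged over genotypes (SE 0.15, adjusted p 0.00112). Its difference by sow genotype at day 110 was -0.41 and did not pass (SE 0.21, adjusted p 0.16). Beside these carriers, the log2 of the summed intensity of the 8 liver markers on the array lay between 15.03 and 15.73 at day 90 and between 13.70 and 14.87 at day 110. APOA1 was the main part of this sum. In MS fetuses its median was 15.52 against 15.55 for the sum at day 90, and 14.13 against 14.24 at day 110. Of the 6 liver markers tested, 1 rose with age and 2 fell (median -0.07), where 72.3% of all probes changed. AFP and FGA were well above background on 3 and 4 of 61 arrays, whereas ALB was so on all 61 and APOA1 was bright. In MS fetuses at day 90 the median of ALB was 5.65 against 15.52 for APOA1. The part of liver transcripts in the SERPINA7 result was not tested.

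The 3 deiodinase genes behaved differently from each other. DIO1 was seen only at day 110, DIO2 was measured at both ages and was higher in MS than in LW fetuses, and DIO3 rose modestly with age.

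DIO1, whose enzyme makes triiodothyronine mainly in liver, kidney and thyroid, had no array well above background at day 90 in any of the 4 genotypes. At day 110 the probe A_72_P336168 ran from 2.23 over 4.43 to 6.08 in LW fetuses, with 6 of 9 measured, and from 3.41 over 5.07 to 6.85 in LWMS fetuses, with 7 of 8 measured. MS fetuses ran from 1.72 over 3.07 to 5.20 with 1 of 7 measured. The MSLW fetuses were at 1.84, 3.73, 6.34, 2.12 and 3.93, of which only the highest was measured. The signal at day 110 was thus widely spread within each genotype.

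The DIO1 probe entered the tests only through LWMS at day 110, so its rise with age is not independent of the filter; without any filter on dim probes the calls given here for LW, for LWMS and for the mean also passed. DIO1 rose with age in LW by 2.29 (SE 0.44, adjusted p 1.33e-05), at least 1.54-fold as a bound, and in LWMS by 3.12 (SE 0.46, adjusted p 3.20e-08), at least 3.18-fold. In MSLW the difference was 1.49 (SE 0.52, adjusted p 0.0126), and it passed without MSLW replicate 1 (adjusted p 0.0022), MSLW replicate 4 (adjusted p 0.00347) or MS replicate 4 (adjusted p 0.00876) at day 110 and with 75th percentile scaling (adjusted p 0.00652). In MS it was 0.82 (SE 0.47, adjusted p 0.122). Averaged over genotypes the rise was 1.93 (SE 0.24, adjusted p 1.28e-10) and was positive in all 8 slides. The 273 kept probes of like brightness ran from -2.50 to 2.14 (5% to 95%), a range that includes the value of DIO1.

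By boar, DIO1 at day 110 was measured in 13 of 17 fetuses of LW boars, with a median of 4.87, and in 2 of 12 fetuses of MS boars, with a median of 3.22, and the ranges overlapped. The difference, MS minus LW boar, was -1.34 (SE 0.35, adjusted p 0.00327), negative in 7 of 8 slides. The LWMS fetuses that admitted the probe are on the LW boar side of this contrast, and with no filter the adjusted p was 0.00496. Without MSLW replicate 1 at day 110 it was -1.12 (adjusted p 0.0174), and without MSLW replicate 4 it was -1.15 (adjusted p 0.0154), both short of the threshold. It also missed with normexp background correction (-0.30, adjusted p 0.0126) and with scaling to the 75th percentile (-1.20, adjusted p 0.0104). By sow genotype the difference was 0.24 (SE 0.35, adjusted p 0.68). The other DIO1 probe, A_72_P035401, was not tested, and was measured at day 110 in 4 of 17 and 2 of 12 fetuses of LW and MS boars.

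DIO2, whose enzyme makes triiodothyronine within muscle itself, was higher in MS than in LW fetuses at both ages. At day 90 A_72_P165621 ran from 4.97 over 5.40 to 5.89 in LW and from 5.78 over 6.33 to 6.55 in MS fetuses. The crosses lay between, with medians of 5.93 in LWMS and 6.07 in MSLW fetuses. MS minus LW was 0.83 (SE 0.20, adjusted p 0.00151), positive in all 8 slides, with ranges that just overlapped.

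At day 110 LW fetuses ran from 4.46 over 5.79 to 6.13 and MS fetuses from 6.02 over 6.16 to 6.96. LWMS fetuses had a median of 5.83, and the MSLW fetuses were at 6.62, 5.89, 5.37, 6.42 and 5.49. MS minus LW was 0.82 (SE 0.20, adjusted p 0.000926), positive in 5 of 6 slides. The mean change with age over the 4 genotypes was -0.01 (SE 0.11, 95% confidence interval -0.22 to 0.20), so a change of more than 0.22 in either direction lies outside that interval.

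The parents could not be separated for DIO2. At day 90 the difference by sow was 0.41 (SE 0.14, adjusted p 0.0496) and by boar 0.43 (SE 0.14, adjusted p 0.0453), and at day 110 they were 0.30 (adjusted p 0.152) and 0.52 (adjusted p 0.0101). None passed the threshold. The one by boar at day 110 passed with 75th percentile scaling, normexp, the deposited values or the scanner's median signal, and without MS replicate 4 or MSLW replicate 3 or 5 at day 110.

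The repeat probe O5493, of the same sequence, gave 1.07 for MS minus LW at day 90 (SE 0.34, adjusted p 0.0177) and 1.08 at day 110 (SE 0.34, adjusted p 0.00911). The pair differed by a median of 0.189 log2 units per array, and by 4.55 on 1 array, MSLW replicate 2 at day 90, where they read 6.20 and 1.65. Their correlation over the arrays was 0.59 with this array and 0.90 without it. Without it O5493 gave an adjusted p of 0.000119 for MS minus LW at day 90, and a difference by sow of 0.59 (adjusted p 0.00563) in place of 0.86 (adjusted p 0.011).

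DIO3, whose enzyme inactivates thyroid hormone and which is known as an imprinted gene of the placenta and fetus, rose with age on both tested probes. On O7546 the purebreds had medians of 3.74 (LW) and 3.67 (MS) at day 90 and the crosses of 3.80 (LWMS) and 3.83 (MSLW), with 12 of 32 arrays measured. At day 110 they were 4.67 in LW, 5.02 in MS and 4.80 in LWMS fetuses, and the MSLW fetuses were at 4.74, 4.58, 4.26, 3.59 and 4.56, with 21 of 29 measured. The ranges of the 2 ages overlapped in every genotype.

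The mean rise of DIO3 was 0.86 on O7546 (SE 0.13, adjusted p 8.41e-08), positive in all 8 slides, and 0.66 on A_72_P479438 (SE 0.15, adjusted p 5.63e-05), positive in 7 of 8. On O7546 it passed in LW (0.81, adjusted p 0.00511), MS (1.18, adjusted p 0.000122) and LWMS (0.79, adjusted p 0.00706), and in MSLW it was 0.65 (adjusted p 0.0569). On A_72_P479438 only MSLW passed (1.21, adjusted p 0.00113), and MSLW at day 110 was also the only group that admitted this probe to the tests, which O7546 entered through MS and MSLW at day 110. With no filter the MSLW rise on A_72_P479438 had an adjusted p of 0.0017, but the LWMS rise on O7546 missed the threshold (adjusted p 0.0102). Over the alternatives the rise on O7546 passed in all 17 in MS, 15 of 17 in LW and 14 of 17 in LWMS. That on A_72_P479438 in MSLW passed in 15 of 17. The 3718 kept probes of brightness like O7546 had a median age change of 0.12 and ran from -1.86 to 1.24 (5% to 95%). The 2974 like A_72_P479438 ran from -2.06 to 1.32, and both ranges include the rise of DIO3. No contrast of breed, sow or boar passed for DIO3, with a difference by boar at day 110 of -0.03 (SE 0.20) and by sow of 0.37 (SE 0.20, adjusted p 0.171) on O7546.

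**Figure D3:**
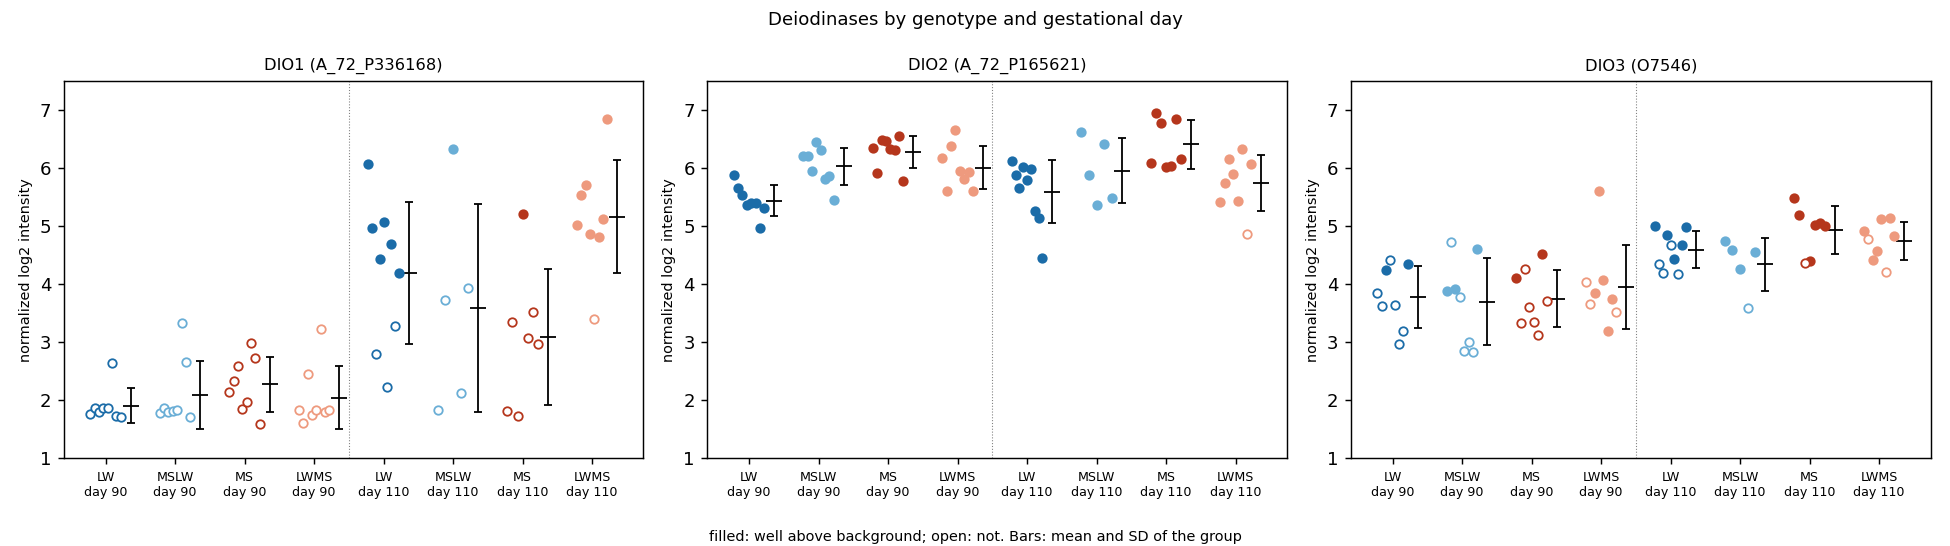
Normalized log2 intensity of the main probe of DIO1, DIO2 and DIO3 in each fetus by genotype and gestational day; filled points are well above background, open points are not, and bars give the group mean and SD. DIO1 is above background only among day 110 fetuses, most often in LW (6 of 9) and LWMS (7 of 8), DIO2 is lower in LW than in MS at both ages, and DIO3 is higher at day 110.

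The receptor genes moved apart with age: THRB rose on both probes, and THRA fell on 2 of its 3 probes under quantile normalization, whereas under 75th percentile scaling the mean change of those 2 was 0.07 and 0.06, of opposite sign and not past the threshold.

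THRB encodes the receptor beta, whose product is induced late in the development of many tissues. On A_72_P141001 the day 90 values ran from 5.37 over 5.80 to 6.22 in LW, from 4.62 over 4.95 to 5.56 in MS, from 5.38 over 5.65 to 7.27 in LWMS and from 5.05 over 5.50 to 5.91 in MSLW fetuses. At day 110 they ran from 5.58 over 6.32 to 7.31 in LW, from 6.22 over 6.45 to 7.40 in MS and from 6.26 over 6.92 to 7.25 in LWMS fetuses. The MSLW fetuses were then at 7.56, 7.44, 6.01, 6.72 and 7.18. The ages did not overlap in MS or in MSLW, and they overlapped in LW and, through 1 fetus at 7.27, in LWMS.

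The rise was 1.66 in MS (SE 0.23, adjusted p 1.13e-08), 1.51 in MSLW (SE 0.26, adjusted p 1.36e-06), 1.00 in LWMS (SE 0.23, adjusted p 0.000129) and 0.69 in LW (SE 0.22, adjusted p 0.00642). The last missed the threshold with normexp and with 75th percentile scaling. Averaged, THRB rose by 1.21 (SE 0.12, adjusted p 5.17e-14) on this probe and by 1.32 (SE 0.13, adjusted p 5.07e-14) on O10872, and was up in all 8 slides on both. On O10872 the purebreds rose by 1.07 (LW) and 1.08 (MS) and the crosses by 1.28 (LWMS) and 1.85 (MSLW), each past the threshold.

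The difference between breeds in the rise of THRB, MS minus LW, was 0.97 on A_72_P141001 (SE 0.32, adjusted p 0.0332) and 0.00 on O10872 (SE 0.35, adjusted p 0.996), so it did not pass. The probes also disagreed on MS minus LW at day 90, which was -0.69 (adjusted p 0.0222) on the former and 0.36 (adjusted p 0.339) on the latter. Within groups their correlation over the 61 arrays was 0.12.

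THRA encodes receptor alpha, the form long known in muscle and heart, and it was measured on every array. On O11594 the day 90 group medians lay between 15.16 and 15.23. At day 110 LW fetuses ran from 14.36 over 15.10 to 15.42, MS fetuses from 14.32 over 14.57 to 15.01 and LWMS fetuses from 14.44 over 14.61 to 14.91. The MSLW fetuses were at 14.47, 14.66, 14.85, 14.64 and 14.77. In MS, LWMS and MSLW every day 110 value lay below every day 90 value of that genotype, and in LW the ages overlapped.

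The difference in age was -0.60 in MS (SE 0.10, adjusted p 4.92e-07), -0.56 in LWMS (SE 0.10, adjusted p 1.21e-06), -0.53 in MSLW (SE 0.11, adjusted p 3.55e-05) and -0.07 in LW (SE 0.09, adjusted p 0.561). With 75th percentile scaling MS came to 0.06, LWMS to -0.02, MSLW to -0.03 and LW to 0.29, of which the rise in LW passed (adjusted p 0.00262). That scaling also raised the median age change of all probes, to 0.13 in MS against 0.03 under quantile normalization. Under either scaling LW was the genotype with the highest age change on this probe.

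MS fetuses were lower than LW on O11594 at day 110 by a difference of -0.48 (SE 0.10, adjusted p 5.62e-05), which was -0.21 and short of the threshold with 75th percentile scaling (adjusted p 0.0504). The difference of their age changes was -0.53 (SE 0.14, adjusted p 0.00576), and it missed the threshold under 6 of 18 alternatives, among them the fit without MS replicate 4 at day 110 (-0.50, adjusted p 0.0119). By sow genotype O11594 differed at day 110 by -0.25 (SE 0.07, adjusted p 0.00752), a call that was lost without MS replicate 4 or MSLW replicate 2, 3 or 5, with adjusted p from 0.0112 to 0.0243, and under 10 of 17 alternatives in all.

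A_72_P364005 followed O11594 closely, with a correlation of 0.83 within groups and a mean age change of -0.32 (SE 0.05, adjusted p 1.40e-08), or 0.06 with 75th percentile scaling. A_72_P088091 did not. It rose by 0.18 (SE 0.05, adjusted p 0.000915) on average and by 0.34 (SE 0.09, adjusted p 0.00158) in LW. Its group medians ran from 8.93 to 9.08 at day 90 and from 9.10 to 9.35 at day 110. The direction of THRA with age thus depended on the probe and on the scaling.

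**Figure D4:**
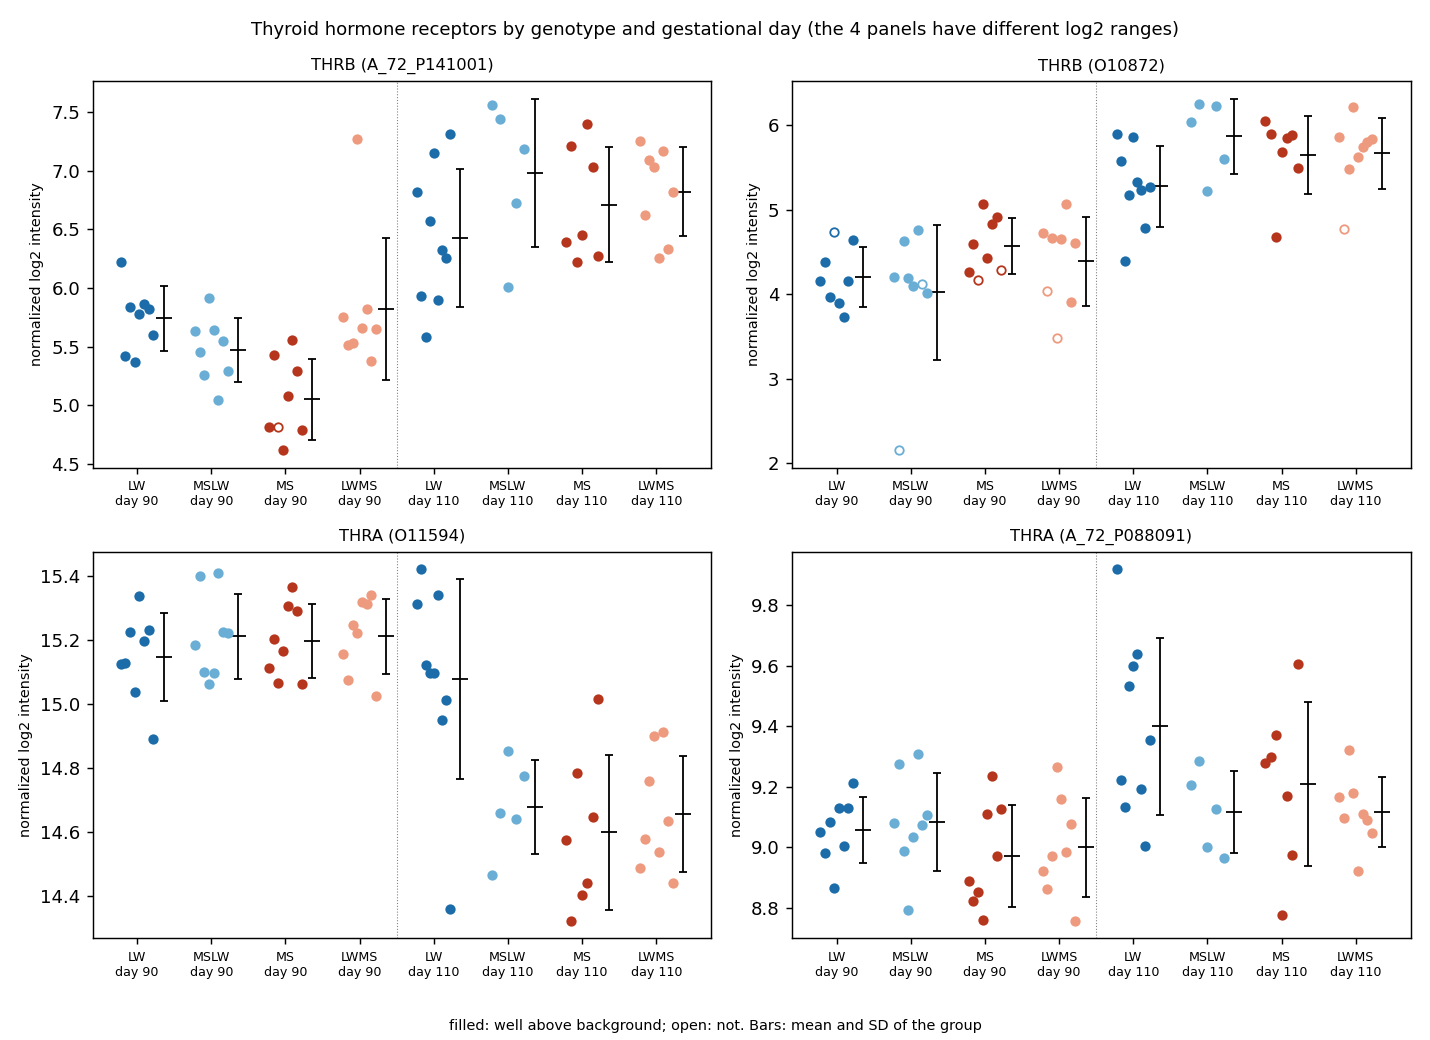
Normalized log2 intensity of both tested THRB probes (top) and of THRA probes O11594 and A_72_P088091 (bottom) in each fetus by genotype and gestational day; the panels have different ranges, filled points are well above background and bars give the group mean and SD. THRB is higher at day 110 in all 4 genotypes, and THRA O11594 is lower at day 110 in MS, LWMS and MSLW but not in LW under quantile normalization, a fall that 75th percentile scaling removes.

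The other genes of the pathway were taken from lists, and each is described by its main probe and its mean change with age. The median change of all probes was 0.04. Of 7 membrane transporters that carry the hormone into cells, 4 were on the array and 3 were tested. SLC3A2, the heavy chain of the amino acid and thyroid hormone exchangers, rose by 1.35 (SE 0.11, adjusted p 1.65e-16), and SLC16A10, an aromatic amino acid transporter that also moves thyroid hormone, rose by 0.51 (SE 0.07, adjusted p 6.34e-10). SLC7A8, a light chain that pairs with SLC3A2, changed by -1.60 (SE 0.12, adjusted p 1.77e-17). At day 110 SLC3A2 was also the higher one in MS, where it exceeded LW by 1.32 (SE 0.22, adjusted p 1.75e-06).

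Of 6 genes of cytosolic binding, selenoprotein synthesis and deiodinase turnover, 2 rose and 3 fell, near the 72.3% of all probes that changed with age. CRYM, which binds triiodothyronine in the cytosol, changed by -1.11 (SE 0.21, adjusted p 2.86e-06). WSB1, a ubiquitin ligase subunit that marks type 2 deiodinase for degradation, changed by -0.93 (SE 0.05, adjusted p 4.40e-24), and USP33, which removes that mark, by -0.49 (SE 0.08, adjusted p 5.96e-07). EEFSEC, the elongation factor for selenocysteine, rose by 0.42 (SE 0.04, adjusted p 9.94e-14). None of the 6 passed the threshold between MS and LW or by sow at day 110, where CRYM (1.14, adjusted p 0.0187) and USP33 (-0.46, adjusted p 0.0193) came nearest for MS minus LW.

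Of 14 receptor partners and co-regulators, 4 rose and 5 fell, a smaller share than the 72.3% of all probes. RXRG, a retinoid receptor that pairs with thyroid hormone receptors and is found in muscle, changed by -2.02 (SE 0.11, adjusted p 6.89e-24), while RXRA rose by 0.50 (SE 0.06, adjusted p 1.06e-11). GPS2, of the corepressor complex, rose by 0.63 (SE 0.04, adjusted p 1.49e-20), and the coactivator NCOA1 changed by -0.46 (SE 0.04, adjusted p 3.14e-16). For MS minus LW at day 110 GPS2 was positive (0.44, adjusted p 1.12e-05) and NCOA1 negative (-0.36, adjusted p 8.04e-05). HDAC3 (-0.24, adjusted p 0.00116), a deacetylase of the corepressor complex, was lower in MS too, and RXRB was higher (0.35, adjusted p 0.00634).

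Of 20 muscle genes known to respond to thyroid hormone, 19 were tested, 16 rose with age and 2 fell. Of all 42436 probes 72.3% changed with age, 15827 up and 14837 down. The median of the 19 was 1.00. The list does not separate genes that the hormone raises from genes that it lowers, so these counts give no direction of hormone action. Among the highest rises were those of PDK4, which turns fuel use from glucose to fatty acids (2.49, SE 0.19), and CPT1B, the gate for fatty acids into mitochondria (2.26, SE 0.07). KLF9, a transcription factor, and PLN, the inhibitor of the slow calcium pump, rose by 1.96 each. All of these passed the threshold, with adjusted p from 9.69e-35 to 5.46e-18.

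UCP2 and MYOD1 were the members of that list that fell, with -1.41 and -0.99 (adjusted p 5.60e-20 and 4.46e-20), and ME1 did not pass (0.11, adjusted p 0.287). With 75th percentile scaling 16 again rose and 2 fell, and the median was 1.52. MYH4 and the calcium pump genes ATP2A1 and ATP2A2 rose on their main probe by 1.75, 1.00 and 0.67, but other probes ranged from -1.29 to 5.17 for ATP2A1 and from -1.59 to 1.46 for MYH4.

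Between MS and LW at day 110, 8 of these 19 genes were higher in MS and 1 was lower, with a list median of 0.34 against 0.01 for all probes, of which 29% were called (5832 up, 6457 down). In the same contrast 4 of 8 skeletal muscle markers were higher in MS and none was lower, and their part in the list was not tested. The responsive genes higher in MS included CPT1B (1.04, SE 0.14, adjusted p 4.25e-08) and KLF9 (1.01, SE 0.21, adjusted p 8.92e-05). Others were ME1, which supplies NADPH for lipid synthesis (0.96, adjusted p 1.74e-05), and HR, a corepressor induced by the hormone (0.86, adjusted p 0.000483). UCP3 (0.75), ATP2A2 (0.46) and MYH2 (0.37) were also among them, and UCP2 was the lower gene (-1.32, adjusted p 7.04e-08). With 75th percentile scaling 13 were higher and 1 lower.

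By sow genotype at day 110, 8 of the 19 were again higher with MS sows and 1 lower, with a median of 0.20 (all probes, 15.1% called), and KLF9 gave 0.59 (adjusted p 0.00359) and UCP2 -0.80 (adjusted p 1.64e-05). By sow 4 of 8 skeletal muscle markers were also higher, and all 5 connective tissue markers named below were lower with MS sows (median -0.50). At day 90, MS minus LW gave 10 higher and 1 lower, with a median of 0.28 (all probes, 12.8% called). The comparisons of breed and of sow share the LW and MS fetuses.

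**Figure D5:**
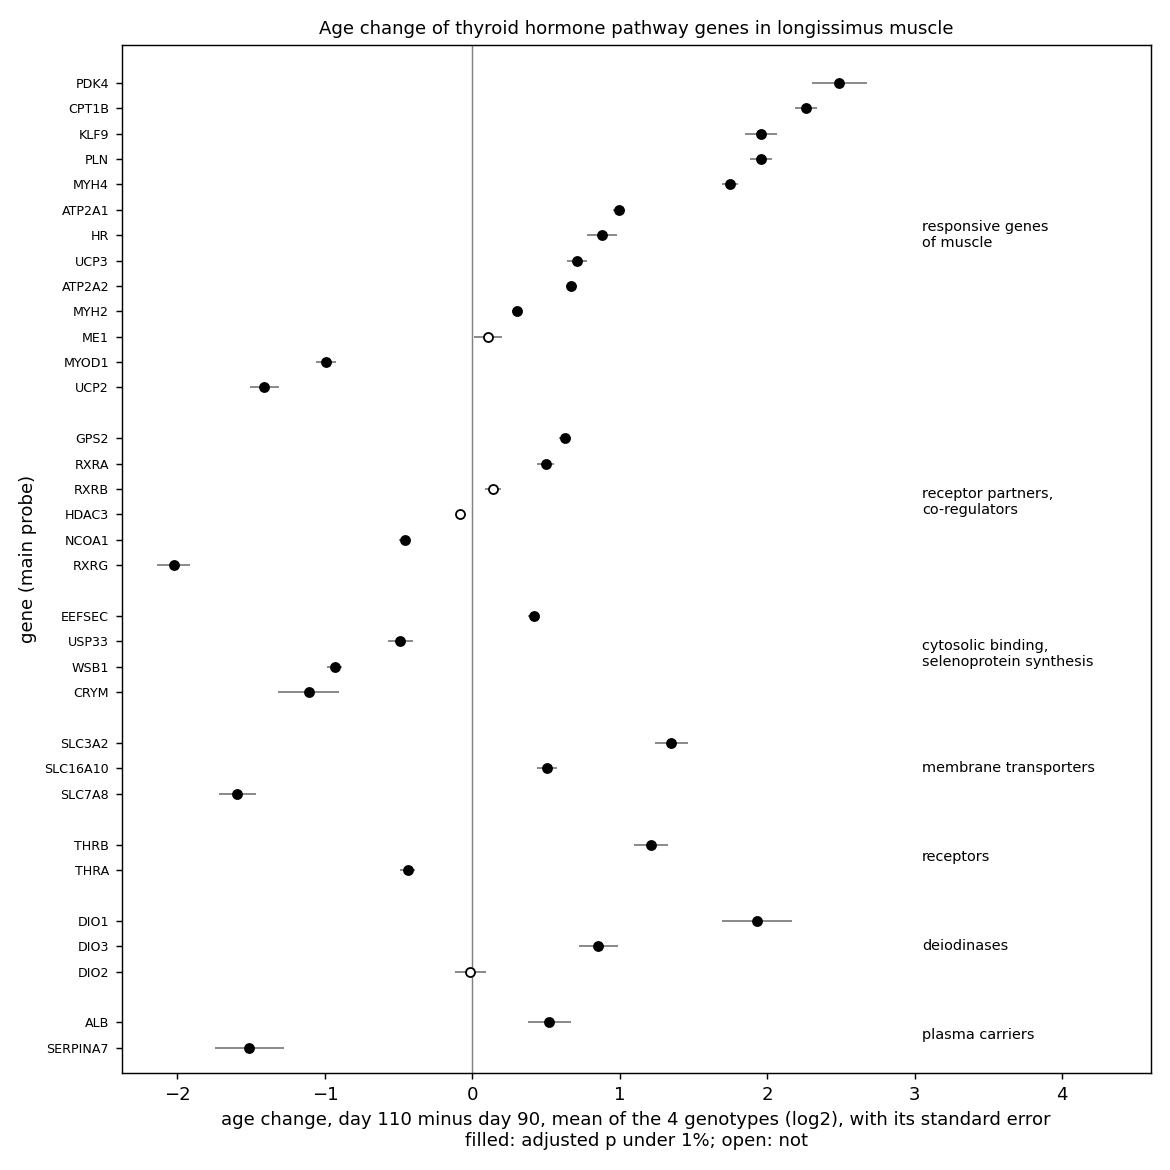
Change with age (day 110 minus day 90, mean of the 4 genotypes, log2) of the main probe of the 6 tested members and of the list genes named in the text, with its standard error; filled points passed the 1% threshold of limma's adjusted p. The responsive genes shown run from -1.41 for UCP2 to 2.49 for PDK4, while among the receptors THRB rose by 1.21 and THRA was at -0.44, which turned to 0.07 with 75th percentile scaling.

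Other cell types moved with age in the same samples. All 5 connective tissue markers (COL1A1, COL1A2, COL3A1, DCN and LUM) fell, with a median change of -1.53, and MS fetuses had all 5 below LW at day 110. The log2 of their summed intensity lay between 18.62 and 19.03 at day 90 and between 16.45 and 17.84 at day 110. Of 4 endothelial markers 3 fell (median -1.03), and 5 of 8 skeletal muscle markers rose and 1 fell (median 0.45). Of 5 thyroid gland markers on the array 2 rose and 1 fell, with a summed log2 level from 7.75 to 9.07 over all arrays. NKX2-1 and FOXE1 had no probe under their symbol. The part of these cell types in the age and breed differences of THRA, THRB, DIO1, DIO2 and DIO3 was not tested.

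The genes whose pattern over the 61 arrays was most like that of each member differed. For THRB they were SIRT3, GPX4 and SLC27A1 (each r 0.85) and, in the opposite sense, PREX1 (-0.86). For THRA they were EMILIN2 (0.87), OS9 (0.87) and LONRF1 (0.86), with PPA1 (-0.88) and TPM1 (-0.87) opposite. For DIO1 they were EFEMP1 (0.76), OXTR (0.75) and BAIAP2 (0.75), and for DIO3 YBX3 (0.75), ZNF236 (0.74) and ARL1 (0.73). DIO2 had no partner above 0.65, the nearest being HMCN1 and PRNP (0.65 each). All of these values mix differences between groups with differences within them, on arrays that share a slide set.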

How the data were processed

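RNA of 61 fetal longissimus samples was measured on single-colour arrays read with Agilent Feature Extraction 10.10.1.1 (submitters' notes). The authors deposited, per fetus, the background-corrected intensity of every spot, not normalized between arrays, and a table of log2 values (44368 spots) that the authors had quantile normalized. Here intensity was quantile normalized and log2 transformed, without controls and with non-uniform spots set to missing. Probes were kept if 80% or more of the arrays of some group had them well above background. The 8 groups were fitted with limma 3.58.1 in R 4.3.3, with two-sided moderated tests and Benjamini-Hochberg adjustment over 42436 probes. Fetuses were the replicates. The labels do not name the sow, so litter-mates were treated as independent and p-values may be too small. The contrasts with age, by sow genotype, between MS and LW and between the crosses compare different litters and are affected most. The number of arrays limits the precision.

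Members and lists were chosen with earlier results of these data known. Main probes were those in the lists of the study, else the one with the highest mean. Named are all members, up to 4 genes per list by size of age change and those past the threshold at day 110, apart from some that are counted but not reported here by name. Gene symbols came from the files or the lists of the study, and RefSeq (Sscrofa11.1) gave chromosomes and gene order only. No genome build was given for probe positions. Alternatives were other signals, scalings, filters, models, slide as a block and left-out arrays. On simulated data with 200 probes changed by 1 log2 unit, 96% were recovered for the mean age change, 81.5% for MS minus LW at day 110, 89% for sow genotype at day 90 and 75.5% for its change with age, on 42436 probes each. The simulated noise was independent between arrays, with no litters and no floor at background, and no other probe changed. These shares may therefore be too high for dim probes and for data with litter-mates.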

Additional observations from a re-analysis of the deposited data

Results flagged for a closer look

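Single fetuses stood apart from their group, by the gap to the nearest other fetus relative to the range, in 10 of 96 groups of values tested, and chance alone gives about 1 in 20. SERPINA7 reached 6.12 on the downstream probe in 1 MS fetus at day 110. DIO1 was highest at 2.64 in 1 LW fetus at day 90, a value not above background. The DIO2 probe O5493 was lowest at 1.65 in 1 MSLW fetus at day 90, where its twin of the same sequence read 6.20. DIO3 O7546 was highest at 5.60 in 1 LWMS fetus at day 90, and DIO3 A_72_P479438 was lowest at 2.57 in 1 LW fetus at day 90 and highest at 5.23 in 1 LW fetus at day 110. THRA O11594 was lowest at 14.36 in 1 LW fetus at day 110. THRB A_72_P141001 was highest at 7.27 in 1 LWMS fetus at day 90, and THRB O10872 was lowest at 2.16 in 1 MSLW fetus at day 90 and at 4.68 in 1 MS fetus at day 110.

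The change with age differed between groups by the test of limma in 5 cases. For the downstream SERPINA7 probe, MS minus LW was 2.42 and MS minus LW sow was 2.53, values set by the background, at which fetuses of MS sows lay at both ages. For the upstream probe these were 2.51 and 2.33, set in part by the background, at which fetuses of MS sows lay at day 90. For THRA O11594, MS minus LW was -0.53.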

How the results depend on the processing

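The SERPINA7 difference by sow at day 90 kept its sign and passed the threshold under all 16 alternatives run on each probe, with values from -4.89 to -1.73 downstream and from -2.41 to -0.46 upstream. The downstream difference at day 110 (-2.56 to -0.46) and the mean age changes of THRB, DIO1 and DIO3 O7546 did so under all 16 of theirs, and MS minus LW of DIO2 A_72_P165621 under all 17 at each age. The mean age change of THRA reversed with 75th percentile scaling on both probes that fell, to 0.0749 on O11594 and 0.0625 on A_72_P364005. So did the changes in MS (0.0645 on O11594 and 0.108 on A_72_P364005) and in LW (0.293 on O11594). The cause was not tested.

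Counts of all probes moved by more than 1.5 times in few comparisons. LWMS minus MSLW at day 110 gave 253 in place of 387 when the crosses were fitted alone. Their difference in age change gave 4 with the crosses alone, 9 with the scanner's median signal and 33 with slide as a block, in place of 14. The difference in age change by sow gave 2088 in place of 1237 with slide as a block. Leaving out in turn each of 8 arrays, the 5 MSLW fetuses at day 110 and 3 others, gave 238 to 448 for the crosses at day 110, 9 to 16 for their difference in age change, 146 to 327 for that by boar (211 with all) and 751 to 1576 for that by sow. Of these, the counts of 238, 327 and 751 came without MSLW replicate 3 at day 110 and the count of 9 without MSLW replicate 1. With 75th percentile scaling the share of higher calls rose from 43% to 63.7% for MS minus LW in age change, from 38% to 51.2% by sow, from 29.9% to 44.8% by boar, and from 44.6% to 58% by boar at day 110. For the crosses in age change it was 71.4%, and 84.6% to 92.3% with the deposited values, the median signal or normexp.

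Requiring a signal well above background on all arrays left only the THRA probes among the members. Leaving out the array with the fewest probes above background, the array on which the DIO2 pair disagreed and the MS fetus with the highest SERPINA7 was chosen after seeing the data. The dim signals of SERPINA7, DIO1 and DIO3 limit the size of their changes, which shrink where background is not subtracted. No paired analysis was possible because the labels carry no replicate numbers or sow that would pair the fetuses.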
